A study of Brassica rapa subsp. pekinensis with 6 samples.

Results

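ABC transporters are membrane proteins that use the energy of ATP to move hormones, lipids, defence compounds, metals and glutathione conjugates across membranes. Their families are named A to I, of which E and F lack membrane parts and are known from protein synthesis. A full-size protein forms a whole pump by itself, whereas half-size proteins, common in families B and G, work in pairs. In leaves, members of this group are known for building the cuticle, for carrying abscisic acid and auxin, for filling the vacuole and for resistance to pathogens.

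The genes described here were all rows of the authors' deposited table whose best protein hit carries the words ABC transporter in its description, 72 of 13225 listed genes. All 72 hits were proteins of Arabidopsis thaliana, and the members fell into 8 families, A to G and I. The names below are those of the hits, and the roles given are those known in Arabidopsis unless another species is named. Sequences of these cabbage genes were not used here.

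The study compared leaves of autotetraploid and doubled haploid Chinese cabbage, Brassica rapa subsp. pekinensis. Autotetraploid plants carry 4 copies of the genome of a single line, and doubled haploid plants 2 copies made by doubling a haploid genome. Plants of both kinds were obtained from the doubled haploid line FT and raised alike, so both groups share that genetic background. Each group had 3 libraries of messenger RNA from mature leaves of the main stem, taken at bolting from below the lowest branch. The submitters call them biological replicates without saying how many plants went into each, so p-values measure the spread between these samples.

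For each gene and group the authors' deposited table gives a single mean of normalised read counts, with the authors' own adjusted p, and it lists only genes with an adjusted p under 0.05. ABC transporter genes that did not pass that test were not analysed here. The reads of single libraries could be worked back from both group means for 20 of the 72 members, and those of the doubled haploid libraries for 38 members, these 20 included. Doubled haploid library values worked back from means of at least 300, given below for ABCG14, ABCG12, ABCB15 (evm.TU.BraA06004181), ABCC4 and ABCC12 (evm.TU.BraA07001008), are less secure. In that range 49.3% of means moved at random also had a solution, beside 6.67% from 100 to 300. Size factors, which scale each library for its depth, lay between 0.926 and 1.01 for autotetraploid plants and between 0.917 and 1.12 for doubled haploid plants. Of 34 listed leaf mesophyll genes, for the Rubisco small chain and chlorophyll-binding proteins, 30 rose and 4 fell, with summed means of 1081920 in autotetraploid and 689720 in doubled haploid plants. Because whole leaves were sampled, fewer cells of a type and less RNA per cell cannot be told apart in any value below. The values are also scaled for depth and so are relative to the other RNA of a library. A lower value therefore need not mean less RNA of that gene per cell.

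More of the ABC transporter genes were lower than higher in autotetraploid leaves. Of the 72 members, 26 rose and 46 fell, so that 63.9% were lower, whereas 50.0% of all listed genes were lower. Of all 34980 genes that the authors tested, 37.8% were listed at all, 18.9% as higher and 18.9% as lower. The median log2 fold change was -0.45 over the members and 0.16 over all listed genes. At a change of at least 2-fold, 5 members rose and 18 fell, 8 of these with a higher mean of at least 100. These are 6.94% and 25% of the members, beside 16.6% and 23% of all listed genes that rose and fell by that much. A change of that size in either direction was listed for 39.6% of all listed genes, and 58.1% of those changes were falls. The members therefore had fewer large rises than the table as a whole and about as many large falls, though no test of this list was made.

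The share of falls was highest among members with low counts. Where both means were under 100 normalised counts, 1 member rose and 14 fell, and among all listed genes of that level 57.3% fell. Where the higher mean was from 100 to 1000, 11 rose and 16 fell, and where it was at least 1000, 14 rose and 16 fell. All listed genes fell in 50.4% and 44.1% of cases in these classes. Over all listed genes the median change was 3.23-fold in the lowest class and 1.61-fold in the highest.

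**Figure D1:**
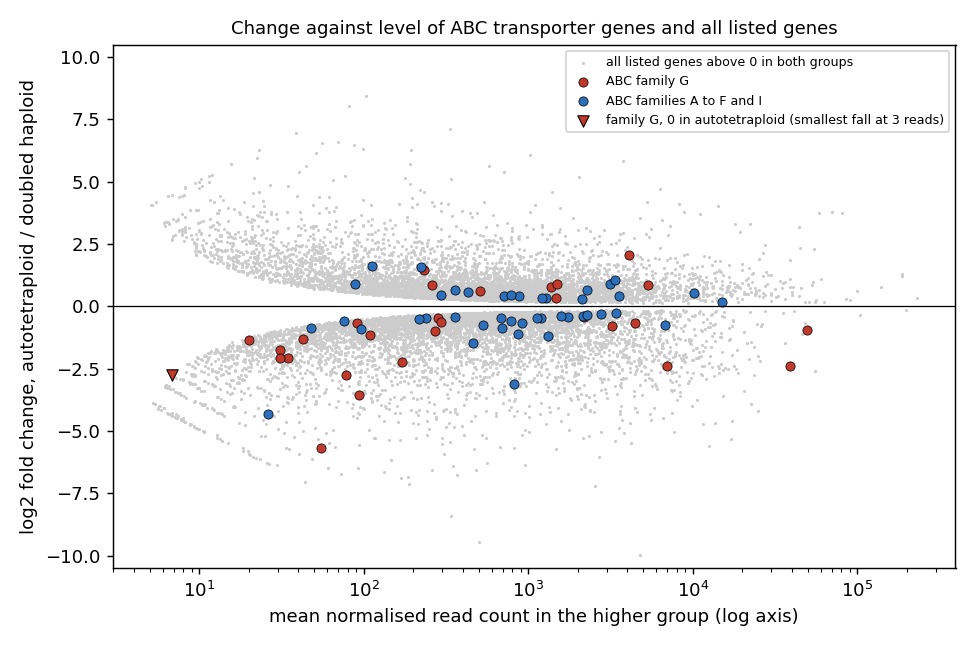
Log2 fold change of each gene (autotetraploid over doubled haploid, vertical axis) against the mean normalised read count of the higher group (horizontal log axis), with all listed genes in grey, ABC family G in red and the other ABC families in blue. Of the 15 members with both means under 100, 14 lie below 0, and the triangle marks a gene listed at 0 in autotetraploid leaves, placed by convention at its fall with 3 reads.

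Counts are given by family, with no test between families. Family G, the largest, had 8 rises and 21 falls among 29 genes, with 2 rises and 13 falls of at least 2-fold and a median log2 fold change of -0.95. Family B had 5 rises and 9 falls among 14 genes (median -0.52), and family C had 6 rises and 8 falls among 14 genes (median -0.29). The 3 genes of family A and the 2 of family E fell. Families D and F were split evenly, with 1 rise and 1 fall, and with 2 rises and 2 falls. All 4 genes of family I rose, with a median log2 fold change of 0.52. Without family G, 18 members rose and 25 fell, with a median of -0.37. At a higher mean of at least 100, family G had 8 rises and 11 falls. Its median there was -0.47 in place of -0.95, beside -0.37 over all members of that level. The falls in family B numbered 5 in that setting. The median of family C changed sign to 0.42 at an adjusted p limit of 0.001 and to 0.08 with 1 gene per protein hit.

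**Figure D2:**
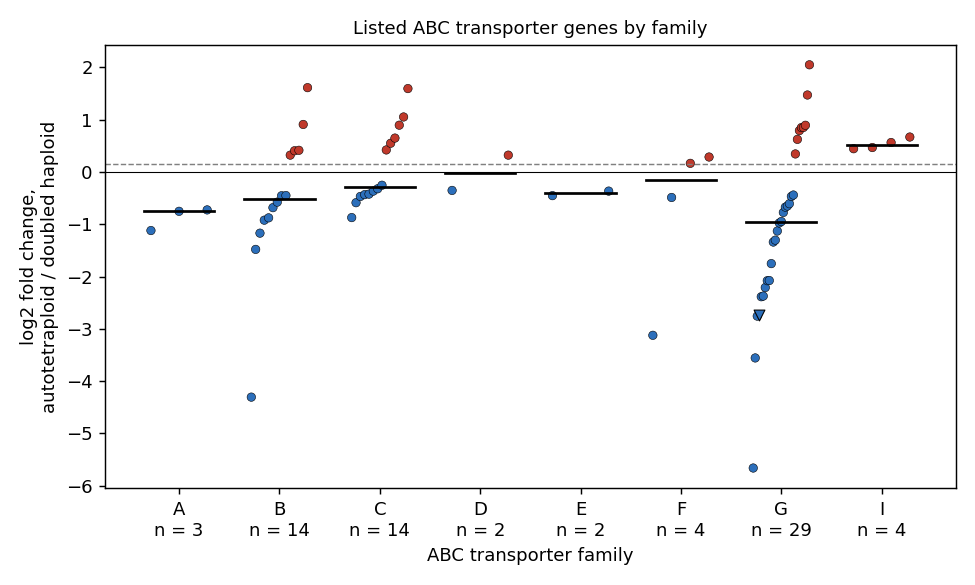
Log2 fold change (autotetraploid over doubled haploid) of every listed ABC transporter gene, by family, with rises in red, falls in blue, the family median as a black bar and the median of all listed genes, 0.16, as a dashed line. The triangle is the gene at 0 in autotetraploid leaves, family G reaches furthest down, to -5.66, and all 4 genes named as family I members lie above 0.

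For the 20 members with reads per library, the libraries of the groups did not overlap in any, with 2 higher and 18 lower in all autotetraploid libraries. The same held for 99.2% of the 3899 listed genes with such reads (3869), so it is no result about the members. limma on log2 of the normalised count plus 1 called 19 of the 20 at an adjusted p under 0.05, again close to the 99.9% called over all genes with reads per library. The exception was a gene matching ABCB11 (evm.TU.BraA08003470, limma, adjusted p = 0.0525). These genes had already passed the authors' test on the same libraries, so limma is no independent check. With 3 libraries a group an exact permutation test of a single gene cannot give a p below 0.1.

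**Figure D3:**
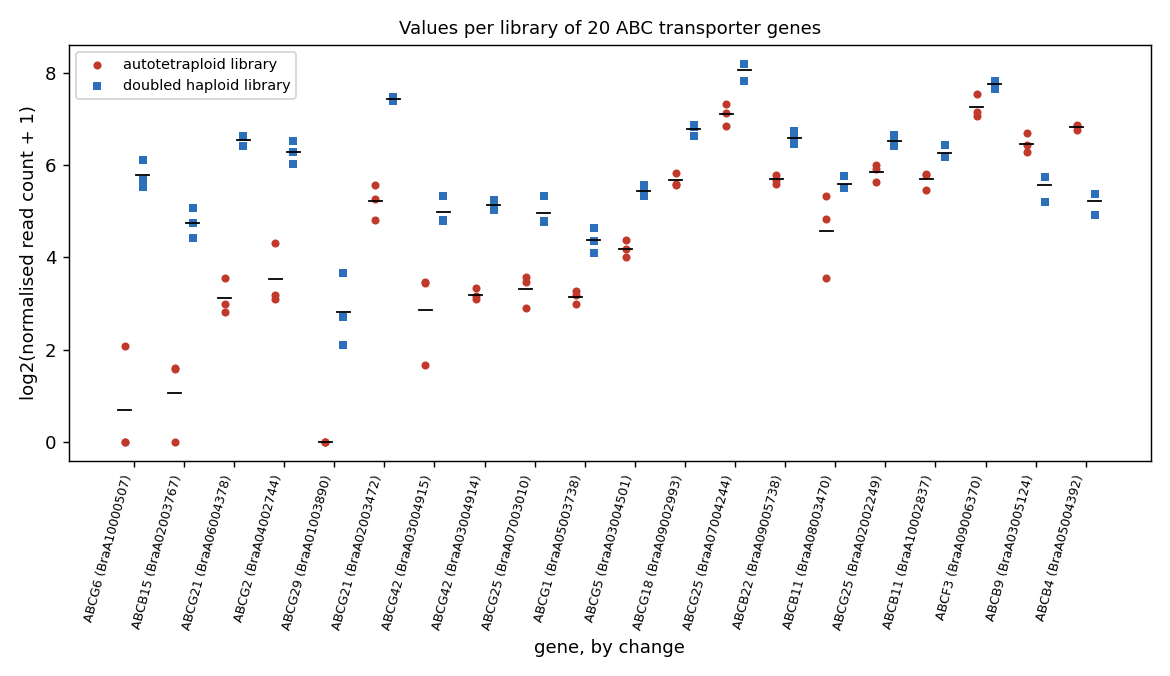
Values per library, as log2 of the normalised read count plus 1, of the 20 ABC transporter genes whose reads could be worked back, with autotetraploid libraries as red circles, doubled haploid libraries as blue squares and group means as bars. The symbols of the groups are separate for every gene, and ABCB9 and ABCB4 at the right are the 2 genes that are higher in autotetraploid leaves.

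Full-size proteins of the pleiotropic drug resistance type, which sit in the plasma membrane and export defence compounds, hormones and lignin precursors, were mostly lower. Of 8 listed genes, ABCG32 not counted, 1 rose and 7 fell, 5 of them at least 2-fold, with a median log2 fold change of -2.08. ABCG32, a protein of this type, also rose and is described further on with the cuticle genes. ABCG36, known as PEN3 and needed for resistance to many fungi, fell in its 1 listed gene (evm.TU.BraA07002605), with means of 25525 in autotetraploid and 49221 in doubled haploid plants, by the authors' deposited table. Its log2 fold change there was -0.95 (authors' deposited table, adjusted p = 2.78e-27). ABCG35, its nearest relative in Arabidopsis, matched a pair of cabbage genes with consecutive identifiers. In the authors' deposited table, evm.TU.BraA06001626 had means of 7483 in autotetraploid and 38775 in doubled haploid plants, and evm.TU.BraA06001627 had 1339 and 7002 in the same order. Both fell by nearly the same factor, 5.18-fold and 5.23-fold, as ratios of means in the authors' deposited table. The adjusted p of the second, 4.65e-255, was the smallest of family G in the authors' deposited table. Whether these neighbours share reads was not examined.

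ABCG34, known for secreting the defence compound camalexin, fell slightly (evm.TU.BraA04002797), with means of 1602 in autotetraploid and 2173 in doubled haploid plants, by the authors' deposited table. ABCG42 also matched a pair of genes with consecutive identifiers, and both were low. The first (evm.TU.BraA03004914) had 7.90, 9.07 and 7.56 normalised counts in autotetraploid libraries and 36.7, 35.1 and 31.6 in doubled haploid libraries. The second (evm.TU.BraA03004915) had 9.88, 10.1 and 2.16 in autotetraploid libraries and 39.4, 26.8 and 27.2 in doubled haploid libraries. The log2 fold changes of the pair were -2.08 and -2.08 in the authors' deposited table.

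ABCG29, known as an exporter of a lignin precursor, had genes in both directions. In the authors' deposited table, evm.TU.BraA05002283 rose, with 232 in autotetraploid and 83.4 in doubled haploid plants as means (adjusted p = 1.59e-17). Its doubled haploid libraries held 93.2, 90.6 and 66.5 normalised counts, all far under the autotetraploid mean. The other gene (evm.TU.BraA01003890) had 0 reads in every autotetraploid library and 11.7, 5.55 and 3.27 normalised counts in doubled haploid libraries. Set by convention against 3 reads in the whole autotetraploid group, it was 6.66-fold lower (authors' deposited table, adjusted p = 0.00403). That value is no lower limit, as counting error alone allows a fall of 5.15-fold or more (95% interval).

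Genes grouped here under abscisic acid, the hormone that closes stomata, all fell. There were 5 of them on 2 Arabidopsis hits, ABCG25 and ABCG22, with a median log2 fold change of -0.77, and 1 fell at least 2-fold. Of these hits only ABCG25 is described here as a carrier of the hormone. ABCG25, an exporter of abscisic acid known from vascular tissue, matched 3 genes. None of their libraries overlapped between groups, which also held for 99.2% of all listed genes with reads per library. The gene with most counts (evm.TU.BraA07004244) had 138, 160 and 114 normalised counts in autotetraploid libraries and 294, 225 and 293 in doubled haploid libraries. Its match to ABCG25 was weak, with an E-value of 1.03e-12. The second (evm.TU.BraA02002249) had 48.4, 63.5 and 59.4 in autotetraploid libraries and 99.5, 84.1 and 89.4 in doubled haploid libraries. The third (evm.TU.BraA07003010) had 10.9, 10.1 and 6.48 in autotetraploid libraries and 39.4, 26.8 and 26.2 in doubled haploid libraries, which gave the largest fall of the group, with a log2 fold change of -1.75 in the authors' deposited table. With quantile normalisation of the recovered counts, the first of these turned to a log2 fold change of 0.52 and the second to -0.13 (limma, adjusted p = 0.0653 and 0.516). That setting moved the median of all 3899 genes to -0.33, against -0.95.

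ABCG22, whose loss makes Arabidopsis leaves lose more water, matched a pair of genes with higher counts. In the authors' deposited table, evm.TU.BraA02000218 had means of 1896 in autotetraploid and 3242 in doubled haploid plants (adjusted p = 1.56e-27). For evm.TU.BraA10000914 the authors' deposited table gave 2849 in autotetraploid and 4473 in doubled haploid plants (adjusted p = 1.77e-21). The fold changes of the pair were alike, at -0.77 and -0.65 on the log2 scale of the authors' deposited table. The vascular markers SWEET11, SWEET12 and SUC2 were lower as well, in 5 of 5 listed genes, with summed means of 9376 in autotetraploid and 16200.3 in doubled haploid plants and none at 0. Of the genes found by the guard cell list, SLAC1 and EPIDERMAL PATTERNING FACTOR 1 rose and EPIDERMAL PATTERNING FACTOR-like 9 fell. Their summed means were 582 in autotetraploid and 421 in doubled haploid plants, with none at 0. Only SLAC1 is described as a guard cell protein, with means of 379 in autotetraploid and 170 in doubled haploid plants. The part of vascular and guard cell amounts in the genes of the abscisic acid group was not tested.

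ABCG14, which loads cytokinin for transport from root to shoot, rose in its 1 listed gene (evm.TU.BraA09003936), with means of 508 in autotetraploid and 329 in doubled haploid plants, by the authors' deposited table (adjusted p = 0.00226). Its doubled haploid libraries held 349, 306 and 334 normalised counts, each under the autotetraploid mean.

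Half-size and full-size G proteins that export wax and cutin, the lipids of the cuticle, were mostly higher. Of 5 listed genes, 4 rose and 1 fell, with a median log2 fold change of 0.79. ABCG12, a wax exporter of the epidermis, rose (evm.TU.BraA05000821), with a mean of 1490 in autotetraploid leaves in the authors' deposited table, against 820, 848 and 738 normalised counts in the doubled haploid libraries. ABCG11, its partner, which exports both wax and cutin, matched 2 genes that rose by similar factors. In the authors' deposited table, evm.TU.BraA06001372 had means of 1380 in autotetraploid and 797 in doubled haploid plants (adjusted p = 7.73e-21). The other (evm.TU.BraA08003324) rose to 261 in autotetraploid leaves in the authors' deposited table, against 134, 158 and 141 normalised counts in doubled haploid libraries, though its match was weak (E-value 2.07e-10).

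ABCG32, needed for the cutin layer, rose by less (evm.TU.BraA04001955), with means of 1466 in autotetraploid and 1154 in doubled haploid plants, by the authors' deposited table. ABCG5, linked to the cuticle of young seedlings, fell (evm.TU.BraA03004501), with 19.8, 17.1 and 15.1 normalised counts in autotetraploid libraries and 46.6, 42.5 and 39.2 in doubled haploid libraries. A pooled list of wax, cutin and suberin synthesis and lipid transfer had 30 rises and 37 falls among 67 listed genes. Its median log2 fold change was -0.32, and its parts differed in direction. The ECERIFERUM 1 and 3 genes rose, with log2 fold changes from 0.26 to 2.03, and so did ECERIFERUM 26-like, with 0.39. ECERIFERUM 7 fell, as did ECERIFERUM 26, with means of only 0.67 in autotetraploid and 6.20 in doubled haploid plants. Both cytochrome P450 86A1 genes and glycerol-3-phosphate acyltransferase 5 fell. Wax, cutin and suberin genes were not counted apart. No epidermis marker of the list used was in the table.

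Genes matched to exporters for suberin, the waterproofing of roots and seed coats, and for the pollen wall were low and fell, in 3 of 3 listed cases, each at least 2-fold. ABCG6 (evm.TU.BraA10000507) had 0, 0 and 3.24 normalised counts in autotetraploid libraries and 50.2, 45.3 and 68.7 in doubled haploid libraries. Its 3 autotetraploid reads came from a single library. The means in the authors' deposited table differ 50.7-fold, and counting error alone allows 17.7 to 258 (95% interval). ABCG2 (evm.TU.BraA04002744) had 18.8, 8.07 and 7.56 in autotetraploid libraries and 91.4, 76.7 and 64.3 in doubled haploid libraries. ABCG1 (evm.TU.BraA05003738) had 6.92, 8.07 and 8.64 in autotetraploid libraries and 16.1, 24 and 19.6 in doubled haploid libraries. Every doubled haploid library was above every autotetraploid library for these genes. The same held for 66.6% of all listed genes with reads per library, and 99.2% were separate in either direction.

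Lists searched for markers of other organs also held more falls than rises. The flower and pollen list takes in any Agamous-like MADS-box protein, such as AGL19 and AGL27, and so is not limited to these organs. Of its 25 listed genes, 5 rose and 20 fell, and 1 was at 0 in autotetraploid leaves. The summed means were 3705 in autotetraploid and 5309 in doubled haploid plants. Of 20 genes found by the root list, which takes in CASP-like proteins of any organ, 7 rose and 13 fell, with summed means of 7876 in autotetraploid and 8963 in doubled haploid plants and none at 0. Their part in the falls of the suberin and pollen wall genes was not tested.

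**Figure D4:**
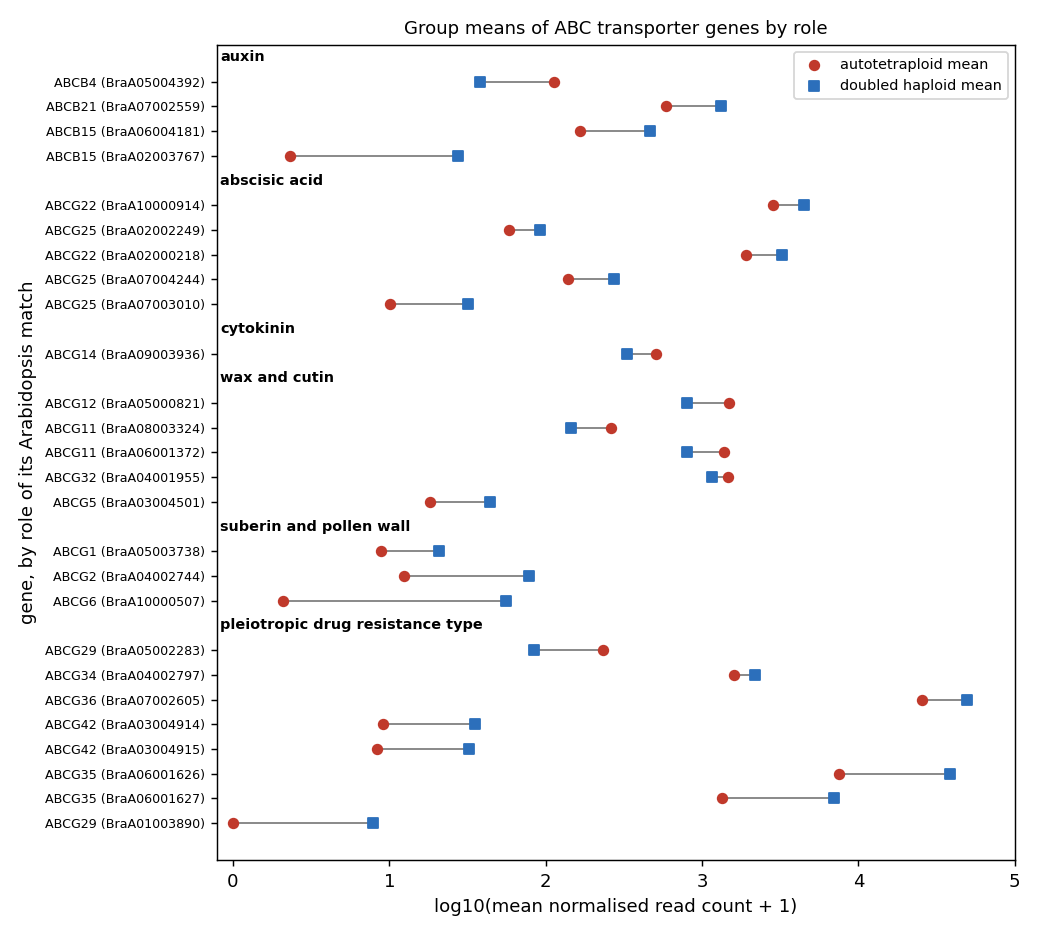
Group means of ABC transporter genes grouped by the role of their Arabidopsis match, as log10 of the mean normalised read count plus 1, with autotetraploid means as red circles and doubled haploid means as blue squares joined by a line. Autotetraploid means lie to the left for all 5 genes of the abscisic acid group and all 3 suberin and pollen wall genes, and to the right for 4 of 5 wax and cutin genes.

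Other G genes held the largest rise of all members and some of the largest falls. ABCG24 (evm.TU.BraA06001861) rose 4.14-fold, with means of 4100 in autotetraploid and 989 in doubled haploid plants, by the authors' deposited table (adjusted p = 1.04e-109). ABCG7 (evm.TU.BraA02003315) rose, with means of 5310 in autotetraploid and 2946 in doubled haploid plants, by the authors' deposited table. ABCG21, a half-size protein, matched 2 genes that both fell. The first (evm.TU.BraA06004378) had 6.92, 6.05 and 10.8 normalised counts in autotetraploid libraries and 98.6, 84.1 and 97.0 in doubled haploid libraries. The second (evm.TU.BraA02003472) had 37.5, 46.4 and 27 in autotetraploid libraries and 166, 178 and 169 in doubled haploid libraries. The remaining G genes, matching ABCG3, ABCG18 and ABCG27, fell with log2 fold changes of -0.61, -1.13 and -0.47 in the authors' deposited table.

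Family B holds full-size auxin carriers and half-size proteins of organelles. Of 4 listed genes matching auxin carriers, 1 rose and 3 fell, each at least 2-fold. ABCB4, known from auxin transport in roots, rose (evm.TU.BraA05004392), with 115, 107 and 117 normalised counts in autotetraploid libraries and 40.3, 40.7 and 29.4 in doubled haploid libraries. ABCB21, its nearest relative in Arabidopsis, fell (evm.TU.BraA07002559), with means of 585 in autotetraploid and 1317 in doubled haploid plants, by the authors' deposited table (adjusted p = 1.81e-40). The close relatives thus differed in direction, with log2 fold changes of 1.61 and -1.17 in the authors' deposited table.

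ABCB15, linked to auxin transport in stems, matched 2 genes that fell. For evm.TU.BraA06004181 the authors' deposited table gave a mean of 166 in autotetraploid leaves, against 488, 407 and 494 normalised counts in doubled haploid libraries. The other (evm.TU.BraA02003767) had 1.98, 2.02 and 0 in autotetraploid libraries and 26, 20.3 and 32.7 in doubled haploid libraries. With 4 autotetraploid reads in all, it was 19.8-fold lower, for which counting error alone allows 7.16 to 71.6 (95% interval). Auxin carriers outside the ABC group, such as PIN and AUX1 proteins, fell in 8 of 10 listed cases, with a median log2 fold change of -0.80.

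Among the other B genes, ABCB9 rose (evm.TU.BraA03005124), with 103, 76.6 and 85.3 normalised counts in autotetraploid libraries and 35.8, 52.7 and 52.3 in doubled haploid libraries. ABCB2 rose slightly (evm.TU.BraA01001389), with means of 1288 in autotetraploid and 1030 in doubled haploid plants, by the authors' deposited table. ABCB27, a vacuolar membrane protein of aluminium tolerance, and ABCB29, named as chloroplastic, rose with log2 fold changes of 0.41 and 0.42 in the authors' deposited table. ABCB25, a mitochondrial protein that serves iron-sulfur assembly in the cytosol, fell, with -0.45 in the authors' deposited table. The 5 genes matching ABCB6, ABCB11 and ABCB22 fell, with log2 fold changes between -0.45 and -0.92 in the authors' deposited table. Of these, the weakest call was that of the ABCB11 gene evm.TU.BraA10002837 (authors' deposited table, adjusted p = 0.0498).

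Family C proteins are known for loading glutathione conjugates, pigments and metal chelates into the vacuole. Their median change in either direction was 1.42-fold, beside 2.19-fold in family G, and this difference was not tested. The families also differ in level, as means of the higher group began at 223.6 in family C and at 6.82 in family G. Over all listed genes with both means under 100, the median change was 3.23-fold. ABCC1 and ABCC2, which store metal chelates, fell in all 3 listed genes, with log2 fold changes of -0.25 (evm.TU.BraA08002718), -0.42 (evm.TU.BraA09004064) and -0.32 (evm.TU.BraA05000191) in the authors' deposited table. ABCC7 and ABCC14 rose, with 0.65 and 0.42, and ABCC8 and ABCC10 fell, with -0.59 and -0.47 in the authors' deposited table. A gene with a weak match to ABCC9 (evm.TU.BraA07002463, E-value 3.97e-09) rose, with means of 3353 in autotetraploid and 1616 in doubled haploid plants, by the authors' deposited table. The proton pumps that energise the vacuole, taken as a separate list, rose in 33 of 36 listed cases, with a median log2 fold change of 0.44.

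Several C hits had genes in opposite directions. ABCC4, known from stomatal regulation, matched evm.TU.BraA06002196, which rose to 3141 in autotetraploid plants, against 1688 in doubled haploid plants, in the authors' deposited table (adjusted p = 4.89e-34). Its other gene (evm.TU.BraA05001104) fell to 379 in autotetraploid leaves in the authors' deposited table, against 693, 713 and 677 normalised counts in doubled haploid libraries. ABCC3, which moves chlorophyll breakdown products, matched evm.TU.BraA03003826, with means of 10180 in autotetraploid and 6954 in doubled haploid plants, by the authors' deposited table. Its other gene (evm.TU.BraA01004161) had 1673 in autotetraploid and 2155 in doubled haploid plants, by the authors' deposited table.

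ABCC12 matched evm.TU.BraA09004063, which rose to 224 in autotetraploid leaves in the authors' deposited table, against 79.8, 64.7 and 77.4 normalised counts in doubled haploid libraries. Its other gene (evm.TU.BraA07001008) fell to 266 in autotetraploid leaves in the authors' deposited table, against 374, 341 and 364 in doubled haploid libraries. The rising ABCC12 gene and the falling ABCC1 gene evm.TU.BraA09004064 carry consecutive identifiers, with log2 fold changes of 1.60 and -0.42 in the authors' deposited table.

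The small families held 15 members. In family A, ABCA7 fell (evm.TU.BraA06000883), with means of 397 in autotetraploid and 863 in doubled haploid plants, by the authors' deposited table. ABCA2 (evm.TU.BraSca000975) and a gene with a weak match to ABCA1 (evm.TU.BraA03002321, E-value 3.42e-07) fell as well, with log2 fold changes of -0.75 and -0.72 in the authors' deposited table. ABCD2, named as chloroplastic, rose (evm.TU.BraA01003299), with means of 1218 in autotetraploid and 974 in doubled haploid plants, by the authors' deposited table.

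The soluble proteins included the largest single change outside families B and G. ABCE2, whose counterpart in yeast recycles ribosomes, matched 2 genes that fell slightly, with log2 fold changes of -0.37 (evm.TU.BraA01001145) and -0.45 (evm.TU.BraA03005201) in the authors' deposited table. Family F is related to the yeast translation regulator GCN20. ABCF2 (evm.TU.BraA10000781) had 92.9, 92.8 and 96.1 normalised counts in autotetraploid libraries, against a mean of 819 in doubled haploid leaves, a fall of 8.72-fold in the authors' deposited table (adjusted p = 1.52e-140). ABCF3 (evm.TU.BraA09006370) fell by less, with 142, 132 and 187 in autotetraploid libraries and 200, 227 and 219 in doubled haploid libraries. ABCF1 and ABCF5 rose, with log2 fold changes of 0.29 and 0.17 in the authors' deposited table. ABCF5 (evm.TU.BraA02004447), with means of 15109 in autotetraploid and 13468 in doubled haploid plants, had the smallest change of all members in the authors' deposited table.

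Family I holds bacterial-type subunits, many of them in chloroplasts. ABCI6, the ATPase of chloroplast iron-sulfur cluster assembly, rose (evm.TU.BraA03003696), with means of 790.1 in autotetraploid and 571 in doubled haploid plants, by the authors' deposited table. ABCI20 (evm.TU.BraA10001351) rose to 360 in autotetraploid leaves in the authors' deposited table, against 232, 193 and 253 normalised counts in doubled haploid libraries. ABCI11, named as chloroplastic, and ABCI19 rose with log2 fold changes of 0.56 and 0.45 in the authors' deposited table. The gene of ABCI8, a partner of ABCI6 described under another name, fell (evm.TU.BraA09004713), with means of 2041 in autotetraploid and 2801 in doubled haploid plants, by the authors' deposited table. The list of iron-sulfur genes, which takes in subunits of respiration and photosynthesis, rose in 18 of 23 listed cases, with a median log2 fold change of 0.50.

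In all, 6 listed genes for ABC proteins or their partners carried other names, and 2 rose and 4 fell. TGD2 and TGD4, proteins of lipid import into chloroplasts, each had 1 gene that rose and 1 that fell. The TGD2 genes had log2 fold changes of 0.50 (evm.TU.BraA05001338) and -0.67 (evm.TU.BraA01002841), and the TGD4 genes 0.38 (evm.TU.BraA05003959) and -0.51 (evm.TU.BraA01004513), in the authors' deposited table. ALS3, a protein of aluminium tolerance, fell (evm.TU.BraA04002745), with -0.97 in the authors' deposited table. Other transporter groups were not alike in direction. MATE exporters, which share substrates with ABC proteins, had 9 rises and 9 falls, and nitrate, peptide and purine carriers had 22 rises and 34 falls.

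Cabbage genes that shared 1 Arabidopsis hit mostly moved together. The 72 members fell on 56 hits, of which 41 had 1 listed gene and 15 had more, 31 genes in all. For 10 of the 15 hits all genes fell, for 1 all rose, and for 4 they were opposite, namely ABCC3, ABCC4, ABCC12 and ABCG29. Opposite genes were found for 26.7% of ABC hits with several genes and for 30.3% of 2160 such hits in the whole table, so the share among ABC hits lay near that of the table. The widest ranges within a hit were those of ABCG29, with 4.21 between its genes on the log2 scale, and of ABCB15, with 2.83. For ABCG29 the gene at 0 was set at 3 reads. The smallest were those of the neighbouring pairs of ABCG42 and ABCG35, with 0.003 and 0.0126. Copies can share reads, which was not examined.

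**Figure D5:**
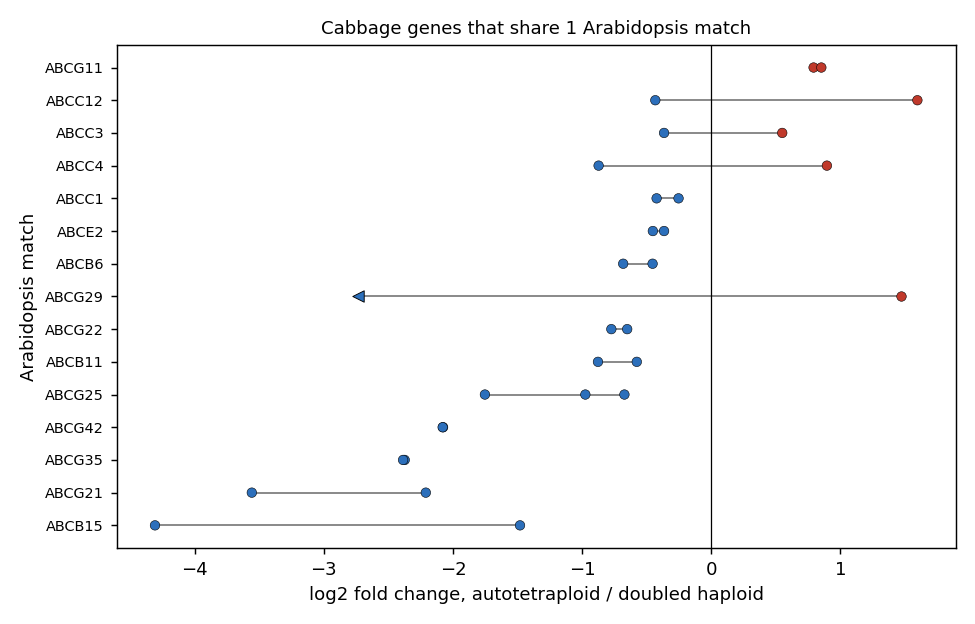
Log2 fold change (autotetraploid over doubled haploid) of each cabbage gene, for the 15 Arabidopsis hits with more than 1 listed ABC transporter gene, with rises in red, falls in blue and a line joining genes of a hit. The triangle is the ABCG29 gene at 0 in autotetraploid leaves, placed by convention, and lines that cross 0 mark the 4 hits with opposite genes.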

How the data were processed

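Per the labels' protocols, RNA of 6 leaf libraries was extracted with TRIzol and sequenced as messenger RNA. Tools named by the submitters' processing notes, with no role, are DESeq 1.18.0, HTSeq 0.6.1, TopHat2 2.0.12 and Bowtie2 2.2.3. The genome build is not given in the sources used here, nor are read totals. The authors' 2 signal columns hold read counts, per the file headers, and their values show 1 normalised mean per group in spite of labels that speak of FPKM. The deposited log2 column equals the log2 ratio of these means, within 5e-05. The p-value and its adjusted form were deposited from the authors' own test, and their ratio and rank give 34980 tested genes.

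The planned limma fit needed values per library, which the table does not give directly. Each mean is a sum of whole reads in steps of 1 read per library. Reads were taken where exactly 1 combination gave the mean within its rounding: for 3385 of 3385 autotetraploid and 3280 of 3280 doubled haploid means under 100, and for 457 of 2837 and 2858 of 2858 from 100 to 300. Every mean under 1000 had a solution. Of 300 means from 100 to 300 moved at random, 3% and 6.67% had one. From 300 to 1000, 0 of 3955 autotetraploid and 3188 of 4079 doubled haploid means had exactly 1 combination, and 12.7% and 49.3% of 300 moved means had any. Doubled haploid library values in that range are therefore less well checked than those of lower means. Of 3009 simulated means, 1065 had exactly 1 combination, and all 1065 were right. Because every combination was searched, this checks only the size of the steps. These libraries carry no replicate number, and intervals cover counting error only.

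On 3899 genes limma 3.58.1 (R 4.3.3) was used with a pseudocount of 1. In simulated counts with 200 genes changed 4-fold and the others unchanged, it called 94% of the changes. Nearly all real genes were called and smaller changes were not simulated, so this says little of the members. Other steps used Python 3.11.15 with numba 0.67.0, SciPy 1.17.1, pandas 2.3.3, NumPy 2.4.6 and matplotlib 3.10.9. A gene at 0 was given 3 reads over its group, a mean of 1.02 in autotetraploid plants. The named genes were the 10 largest rises and falls at a mean of at least 20, the most abundant and the smallest adjusted p of each family, and all genes of the auxin, abscisic acid, cytokinin, wax, suberin and opposite-copy groups; others were added after their values were seen, and 1 member is counted but not reported by name here. Members and lists were chosen with earlier results of these data known, and no list was tested. Of the member identifiers, 0 were found in the reference annotation given, and no coordinates were used.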

Additional observations from a re-analysis of the deposited data

How the results depend on the processing

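With a higher mean of at least 100, members that fell at least 2-fold numbered 8 in place of 18, falls in family G 11 in place of 21 and in family B 5 in place of 9. The median of family G was -0.47 in that setting, against -0.95. Falls in family C numbered 5 in place of 8 at an adjusted p limit of 0.001, and 5 with 1 gene per protein hit. The median of family C was 0.42 and 0.0846 in these settings, against -0.29. The cause was not tested. The other counts and medians over all members, and those of families B, C and G, stayed within 1.5 times or on the same side of 0, under stricter p limits, minimum means, 1 gene per hit, Arabidopsis hits only, without A01 genes, with ABC proteins of other names, and, chosen after seeing the data, without hits of an E-value above 1e-20. In families D, E and F single genes lost under these settings moved counts of 1 or 2. Leaving out each library in turn, limma called 18 to 19 of the 20 members. With quantile normalisation limma called 15, and the ABCG25 genes evm.TU.BraA07004244 and evm.TU.BraA02002249 had log2 fold changes of 0.52 and -0.13 (limma, adjusted p = 0.0653 and 0.516). No paired analysis was possible because the libraries carry no replicate numbers. The depth is known only as reads recovered from low means, and changes of strongly expressed members rest on group means without a spread.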
